A study of Mus musculus with 30 samples.

Results

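The comparison described here set 3 female hind paw libraries labelled PRL_Sh against 3 female hind paw libraries labelled PRL. The 6 libraries were chosen by their labels, of 30 in the series, and every one of the 22609 genes listed in the files was considered. The series sequenced RNA of hind paw and dorsal root ganglia (DRG, where sensory neurons have their somata) from female and male mice given prolactin or vehicle (Veh). Mice of both groups compared were C57BL/6J females aged 10 to 12 weeks with the treatment given as prolactin, so both groups share the hormone and neither is an untreated control. The protocol lists 1 µg of prolactin injected into the paw once, or daily over 12 days, and the labels do not tie either schedule to a group. They do not say what Sh stands for. PRL libraries were made after rRNA removal (KAPA RiboErase) and PRL_Sh libraries with an mRNA kit (TruSeq), from about 500 ng of RNA each, with single reads of 50 nt. Library kit and group coincide, so a difference between kits and a difference between treatments cannot be told apart in any value below. The labels do not state that the 3 replicates of a group are separate animals, and p-values measure only the spread between these samples.

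Selection of mRNA by its poly(A) tail keeps tailed transcripts and loses RNAs that have none, such as small nuclear RNAs, most small nucleolar RNAs and the histone mRNAs made in S phase. Depletion of rRNA by probes keeps both, together with unspliced nuclear RNA. The paw is skin with its epidermis, dermal fibroblasts and resident macrophages and mast cells, over muscle, tendon, vessels and nerve endings, and its prolactin receptor (Prlr) signals through JAK2 and STAT5.

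Gene reads numbered 10.0 to 11.2 M in PRL libraries and 21.8 to 23.2 M in PRL_Sh libraries. Of all reads counted in a file, 22.3% to 24.5% were assigned to genes in PRL and 42.2% to 43.0% in PRL_Sh. Another 30.6% to 33.9% and 9.45% to 10.8% matched no counted feature. The kind of feature counted is not given, so reads in introns may be among these. Xist was at 1269 CPM or more in all 6 libraries and the Y-linked gene Ddx3y had 0 or 1 read in each. Krt10, a keratin of the upper epidermis, was at 22299, 18409.9 and 25567 CPM in PRL and at 22334, 25681 and 16612 CPM in PRL_Sh, and Scn10a, a channel of sensory neurons, had 6, 6 and 6 reads in PRL and 10, 21 and 4 reads in PRL_Sh. The summary lines of the count files are spelled differently in the 2 groups. PRL replicate 3 stood apart in muscle RNA, with 0.277% of its gene reads in contractile genes against 2.05% and 5.88% in the other PRL libraries.

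Most of the transcriptome differed between the groups. Of 14800 genes tested with edgeR's quasi-likelihood test, 8653 (58.5%) passed an adjusted p of 0.05, 4356 of them (29.4%) higher in PRL_Sh and 4297 (29.0%) lower. A change of at least 2-fold was met by 1840 higher genes (12.4%) and 2417 lower genes (16.3%). The 3 libraries of one group lay wholly above or below the other 3 for 9783 genes (66.1%). These shares are the background for every count below that names no other setting, and the median log2 change over all tested genes was 0.05. Correlations of log2 CPM were 0.94 to 0.99 within a group and 0.81 to 0.88 between groups. Levels are CPM after TMM scaling, that is, set to an equal number of gene reads per library. SE is the fitted log2 change of PRL_Sh over PRL, without its sign, divided by the square root of the test's F value. The SE of a difference between tissues was found in the same way. Each SE is thus worked back from the test and is not a standard error given by the fit. For genes with almost no reads in a group, SE depends on the prior count, as the log2 change does.

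**Figure D1:**
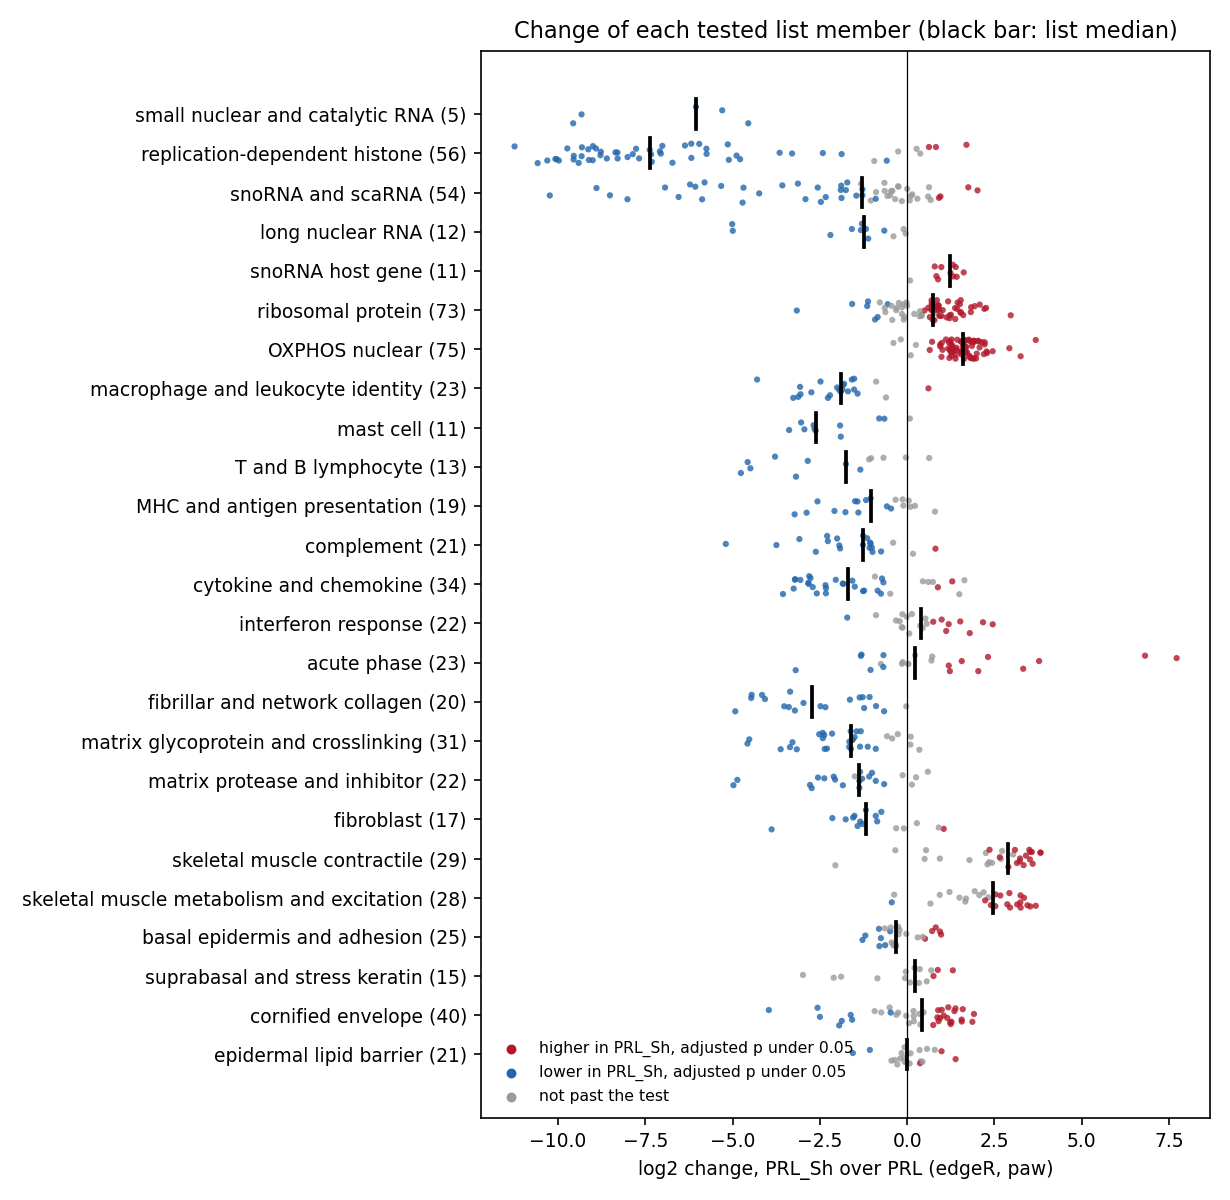
Log2 change of PRL_Sh over PRL in female paw for every tested member of 25 gene lists (number tested in brackets), one point a gene (red higher, blue lower, grey not past the test), with the list median as a black bar. Small nuclear RNA (median -6.05) and histone genes (median -7.36) sit farthest left, collagen (-2.72) and macrophage genes (-1.90) lie left of 0, and muscle contractile (2.90) and OXPHOS genes (1.61) lie right of 0.

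Many of the largest falls were of RNAs that carry no poly(A) tail. All 5 tested small nuclear and catalytic RNAs were lower. Rmrp, the RNA of the RNase MRP enzyme, was at 2808, 1718 and 1982 CPM in PRL and at 1.03, 1.03 and 8.08 CPM in PRL_Sh (log2 change -9.33 ± 1.04 SE, adjusted p = 0.000388). Rpph1, the RNA of RNase P, was at 4622, 2486 and 2801 CPM in PRL and at 1.59, 1.57 and 9.92 CPM in PRL_Sh (log2 change -9.57 ± 1.002 SE, adjusted p = 0.000301). PRL_Sh replicate 3 was the highest of its group for both, and far below every PRL library. Summed, the list took 0.759%, 0.409% and 0.476% of gene reads in PRL and 0.000301%, 0.000275% and 0.00182% in PRL_Sh. Of 54 small nucleolar and Cajal body RNAs tested, 29 were lower and 4 higher (median -1.30). Scarna2, a guide RNA of Cajal bodies, was at 52.9, 66.9 and 82.5 CPM in PRL and at 0.0858, 0.0896 and 0.2295 CPM in PRL_Sh (log2 change -8.899 ± 0.33 SE, adjusted p = 2.46e-05). Scarna10, of the same class, was at 38.3, 85.4 and 119 CPM in PRL and at 0, 0 and 0.184 CPM in PRL_Sh (log2 change -10.24 ± 0.79 SE, adjusted p = 0.000113). Vaultrc5, a vault RNA, was at 11.3, 6.89 and 7.13 CPM in PRL and at 0.214, 0.0448 and 0.367 CPM in PRL_Sh (log2 change -5.297 ± 0.51 SE, adjusted p = 0.000214). Snord22, whose sequence lies in an intron of a host gene, fell less (log2 change -2.33). The hosts themselves went the other way. Of 11 tested host genes of small nucleolar RNAs, 10 were higher and none lower (median 1.24). Gas5 was at 86.4, 118 and 103 CPM in PRL and at 187, 187 and 196 CPM in PRL_Sh (log2 change 0.89 ± 0.14 SE, adjusted p = 0.00135), and Snhg5 and Snhg6 rose by 1.39 and 1.62 on the log2 scale. Among 36 tested microRNA hairpin or host entries, 17 were lower and 5 higher, with Mir1894 at 4.12, 2.06 and 2.15 CPM in PRL and at 0.214, 0.0448 and 0.0918 CPM in PRL_Sh and Mir682 at 2.02, 1.85 and 1.76 CPM in PRL and at 10.5, 10.97 and 8.26 CPM in PRL_Sh. These entries count fragments over the locus and are not mature microRNAs.

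Histone mRNAs of the S phase end in a conserved stem-loop instead of a poly(A) tail. The loop was searched as GGCNCTTTTCAGNGCC on the given strand of all GENCODE M21 transcripts (GRCm38) and was found in 36 of 55341 genes (0.065%), 32 of which are among the 67 histone genes with a transcript model. The sites shown are those of Hist1h1e and Hist1h1d, linker histones whose level fell, of Hist1h1c, a linker histone that did not pass the test, and of Hist1h4d, chosen after its values were seen to show the other form of the loop. Capitals mark the stem-loop and the coordinates are its GRCm38 position. All 4 lie in an exon after the stop codon.
Hist1h1e, chr13:23621782-23621797 (- strand): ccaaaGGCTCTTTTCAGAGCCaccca
Hist1h1d, chr13:23555787-23555802 (+ strand): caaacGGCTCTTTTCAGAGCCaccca
Hist1h1c, chr13:23739512-23739527 (+ strand): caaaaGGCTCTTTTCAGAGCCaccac
Hist1h4d, chr13:23581950-23581965 (+ strand): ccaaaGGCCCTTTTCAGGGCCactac

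Of 56 tested replication-dependent histone genes, 49 were lower in PRL_Sh, 3 were higher and 4 did not pass the test (median log2 change -7.36). Of the 56, 4 had 0 reads in a whole group, and with those set to the limit of 3 reads the median was -7.33. Hist1h1e, a linker histone, was at 224, 152 and 201 CPM in PRL and at 2.36, 1.66 and 3.902 CPM in PRL_Sh (log2 change -6.18 ± 0.34 SE, adjusted p = 5.84e-05). Hist1h1b and Hist1h1d, linker histones too, changed by -9.12 and -7.34 on the log2 scale. Hist2h2bb, a core histone, was at 77.2, 79.4 and 102 CPM in PRL and at 0.0858, 0.0448 and 0.0918 CPM in PRL_Sh (log2 change -10.04 ± 0.25 SE, adjusted p = 5.33e-06). The 10 tested genes whose every transcript model ends within 100 nt of the stem-loop were all lower (median -8.48), the smallest change being -3.30. Another 15 tested genes have the stem-loop with a model that runs more than 100 nt past it, often the only model, or a model without it. Of these 15, 12 were lower and 1 higher (median -4.88). Of 30 tested genes in which no stem-loop was found, 27 were lower and 1 higher (median -8.15). Some of these have only a short model, as Hist1h4k (312 nt) and Hist1h2bl (381 nt). A loop past the end of a model, or with other letters, would be missed, so these genes may still have one. Hist1h1c carries the same loop letters as Hist1h1e and Hist1h1d. Hist1h1c was at 246, 222 and 255 CPM in PRL and at 196, 207 and 203 CPM in PRL_Sh (log2 change -0.26 ± 0.11 SE, adjusted p = 0.083), and its model runs on for 840 nt after the loop, against 1153 nt in Hist1h1e. Hist1h2bc, a core histone, was at 66.3, 57.6 and 59.7 CPM in PRL and at 74.8, 84.6 and 62.6 CPM in PRL_Sh (log2 change 0.27 ± 0.13 SE, adjusted p = 0.118). Many histone variants are made outside S phase too, from tailed mRNA. Of 11 variant genes tested, H2afv (0.94) and H2afj (0.96) were higher and H2afx (-0.68) was lower. The searched stem-loop was found in no transcript model of the 11, which does not exclude forms missing from the models. The H2afx difference did not pass in 6 of 18 alternatives.

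**Figure D2:**
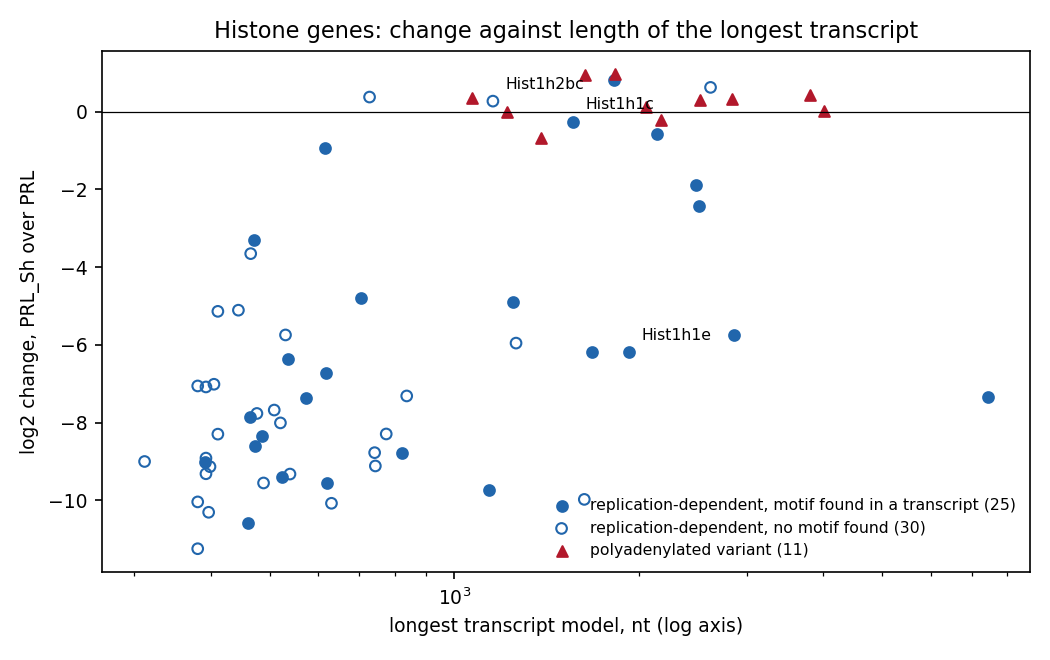
Log2 change of PRL_Sh over PRL for each tested histone gene with a transcript model, against the length of its longest GENCODE M21 model in nt (log axis). Filled circles are replication-dependent genes with the stem-loop in a model (25), open circles those without (30), triangles the 11 variant genes, which lie between -0.68 and 0.96.

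Of 12 tested long nuclear RNAs, 9 were lower in PRL_Sh and none higher (median -1.24). With an offset for transcript length, an alternative described next, 5 were lower and 1, Neat1, was higher (median -0.48). Malat1, a tailless RNA of nuclear speckles, was at 21028, 26129 and 28586 CPM in PRL and at 991, 690.0 and 668 CPM in PRL_Sh (log2 change -5.01 ± 0.39 SE, adjusted p = 0.000119) and went from 2.51% to 0.0787% of gene reads. Kcnq1ot1, an unspliced imprinted RNA, was at 293, 366 and 299 CPM in PRL and at 11.4, 7.79 and 10.8 CPM in PRL_Sh (log2 change -4.99 ± 0.203 SE, adjusted p = 2.62e-05). Meg3, another imprinted RNA, was at 76.3, 79.1 and 56.6 CPM in PRL and at 19.6, 12.5 and 14.1 CPM in PRL_Sh (log2 change -2.196 ± 0.21 SE, adjusted p = 0.000219). Neat1, the paraspeckle RNA, overlapped between the groups at 2446, 3387 and 3805 CPM in PRL and at 3446, 2268 and 3275 CPM in PRL_Sh (log2 change -0.101 ± 0.28 SE, adjusted p = 0.772), and was higher by 1.63 (adjusted p = 0.00213) with that offset. Xist, which coats the inactive X, was at 2723, 3350.3 and 3811 CPM in PRL and at 1365, 1318 and 1269 CPM in PRL_Sh (log2 change -1.32 ± 0.21 SE, adjusted p = 0.00168). The Xist value turned to 0.30 (adjusted p = 0.271) with that offset. Tbrg3, listed without a transcript model in the reference, was at 51.4, 51.8 and 60.03 CPM in PRL and at 0.0858, 0.0448 and 0.0459 CPM in PRL_Sh (log2 change -9.67 ± 0.22 SE, adjusted p = 5.33e-06).

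The change followed transcript length across all tested genes. Sorted by the longest transcript model into 5 equal groups, the shortest (67 to 1922 nt) had a median log2 change of 0.72 and the longest (5210 to 123179 nt) one of -0.70, with 0.35, 0.09 and -0.16 between. In the shortest group 56.2% of genes were higher and 12.1% lower, and in the longest 5.74% and 63.0%. Spearman's rho was -0.45 across 14649 genes, which share their 6 libraries and are not independent. GC content followed the change less (rho 0.13). Genes with a transcript over 5000 nt took 41.1% to 44.9% of gene reads in PRL and 22.9% to 26.3% in PRL_Sh. Some list counts are also given with an offset that removes this trend, called the length offset and chosen after the data were seen, under which 3221 of 14649 genes were higher (22.0%) and 3373 lower (23.0%). Others are given with the mean level of the muscle genes in each library as a covariate, under which 2799 of 14800 genes were higher (18.9%) and 3302 lower (22.3%). That mean log2 level did not overlap between the groups, at 6.93, 8.34 and 3.60 in PRL and 9.66, 9.12 and 10.2 in PRL_Sh. The covariate can therefore remove part of the group difference itself, and values under it are not the difference at equal muscle content. List counts without a library have their own background. Without PRL replicates 1, 2 and 3 in turn, 3692, 4011 and 3912 genes were higher and 4068, 4093 and 4144 lower. The genes tested then numbered 15339, 15329 and 15340. Without PRL_Sh replicates 1, 2 and 3 in turn, 3476, 3738 and 3718 were higher and 3510, 3933 and 3938 lower. The genes tested then numbered 14681, 14692 and 14659.

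**Figure D3:**
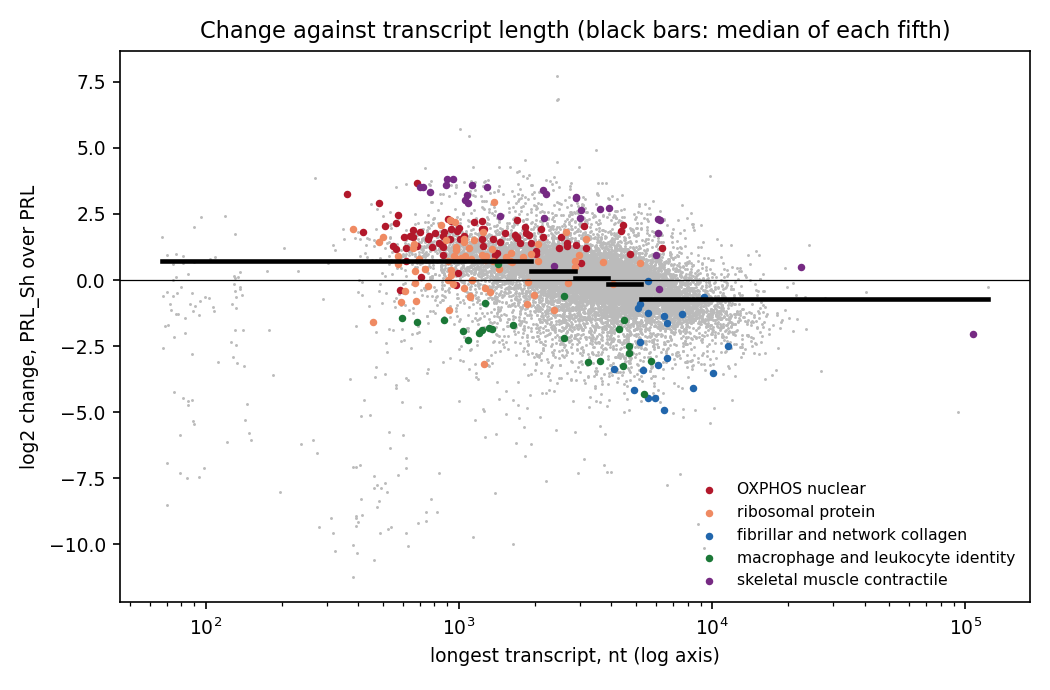
Log2 change of PRL_Sh over PRL for 14649 tested genes (grey points) against the longest transcript model in nt (log axis), with black bars for the median of each of 5 equal groups and 5 lists in colour. OXPHOS and ribosomal protein genes are short and mostly above 0, while collagen genes are long and below 0, and macrophage genes lie mostly below 0.

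Most genes of the respiratory chain were higher in PRL_Sh, with or without the length offset, while those of the ribosome were more often higher only without it. Of 75 tested nuclear genes of oxidative phosphorylation, 71 were higher and none lower (median 1.61). For 68 of the 75, PRL_Sh exceeded all 12 rRNA-depleted paw libraries of both sexes (all genes, 23.3%). With the length offset 60 were higher and 1 lower (median 0.90). Ndufa6, of complex I, was at 31.9, 29.9 and 29.8 CPM in PRL and at 140.5, 136 and 145 CPM in PRL_Sh (log2 change 2.202 ± 0.097 SE, adjusted p = 3.17e-05). Atp5b, of the ATP synthase, was at 535, 679 and 492 CPM in PRL and at 1607, 1265 and 1669 CPM in PRL_Sh (log2 change 1.41 ± 0.21 SE, adjusted p = 0.00111), and Atp5a1 and Atp5j2, of the same enzyme, changed by 1.39 and 1.91. Of 73 tested ribosomal protein genes, 44 were higher and 7 lower (median 0.73). Rplp2 was at 28.2, 17.8 and 22.7 CPM in PRL and at 108, 118 and 93.8 CPM in PRL_Sh (log2 change 2.21 ± 0.18 SE, adjusted p = 0.000141). Rps3, Rps19 and Rpl4 changed by 1.54, 1.83 and 0.87. The ribosomal count was 18 higher and 21 lower with the length offset (median 0.04), against 22.0% and 23.0% of all genes. Ribosomal protein genes have many processed copies in the genome, so reads can be lost or placed in a wrong copy in ways that the files do not show.

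Macrophage genes were lower in PRL_Sh. Of 23 tested identity genes, 20 were lower by at least 2-fold and 1 was higher (median -1.90), and the count lower was 20 with the length offset as well (median -2.52). In whole tissue, fewer cells of a type and less RNA of that type per cell cannot be told apart. Mrc1, the mannose receptor of resident macrophages, was at 355, 334 and 319 CPM in PRL and at 15.7, 15.9 and 19.6 CPM in PRL_Sh (log2 change -4.298 ± 0.15 SE, adjusted p = 2.27e-05). Ptprc, the CD45 phosphatase of all leukocytes, was at 111, 112 and 113 CPM in PRL and at 9.69, 12.4 and 18.4 CPM in PRL_Sh (log2 change -3.05 ± 0.23 SE, adjusted p = 0.000108), and is named after its values were seen. Csf1r, the receptor that keeps macrophages alive, was at 369.7, 290.2 and 249.999 CPM in PRL and at 51.9, 54.5 and 56.6 CPM in PRL_Sh (log2 change -2.48 ± 0.17 SE, adjusted p = 7.58e-05). No PRL_Sh library reached a PRL library in any of these 3 genes. Emr1 (F4/80) and Cd163, a scavenger receptor, changed by -3.12 and -3.26. Lyz2, the lysozyme of myeloid cells, was at 491, 326 and 175 CPM in PRL and at 102, 93.5 and 89.2 CPM in PRL_Sh (log2 change -1.803 ± 0.34 SE, adjusted p = 0.00336), with PRL replicate 1 highest. Lgals3, made by keratinocytes as well, was the member that was higher, at 673, 542 and 700.4 CPM in PRL and at 939, 1173 and 817 CPM in PRL_Sh (log2 change 0.61 ± 0.198 SE, adjusted p = 0.0312), and its call was lost in 8 of 18 alternatives, with a change of sign to -0.073 under the length offset. Among 16 activation genes, 9 were lower and none higher. Retnla, a marker of the alternative state, was at 45.3, 113 and 148 CPM in PRL and at 1.42, 1.97 and 1.84 CPM in PRL_Sh (log2 change -5.87 ± 0.49 SE, adjusted p = 0.000139). Clec7a, a receptor for fungal glucan, was at 40.02, 35.7 and 38.5 CPM in PRL and at 1.29, 4.03 and 3.03 CPM in PRL_Sh (log2 change -3.77 ± 0.36 SE, adjusted p = 0.000206), while Trem2 and Gpnmb, of lipid-handling macrophages, changed by -2.79 and -2.61. Arg1 was at 127, 83.2 and 75.2 CPM in PRL and at 89.9, 110.1 and 59.5 CPM in PRL_Sh and did not pass the test (adjusted p = 0.683).

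The female vehicle libraries, made with the same kit as PRL, give a second reference, here as CPM scaled over all 15 paw libraries. Ptprc was at 37.5 to 40.6 CPM in Veh, 106 to 110.4 CPM in PRL and 9.39 to 17.6 CPM in PRL_Sh. Mrc1 was at 127 to 175 CPM in Veh and 15.2 to 18.8 CPM in PRL_Sh, so PRL_Sh lay below both. Of the 23 identity genes, 10 were in all PRL_Sh libraries below all 12 rRNA-depleted paw libraries (all genes, 22.9%) and 1 was above (all genes, 23.3%). Some genes that were low in PRL_Sh were low in Veh too. Mmp12, the macrophage elastase, was at 0.593 to 0.893 CPM in Veh, 13.2 to 37.4 CPM in PRL and 0.04302 to 2.11 CPM in PRL_Sh. Car4, a membrane carbonic anhydrase, was at 0.0848 to 0.7502 CPM in Veh, 13.4 to 29.9 CPM in PRL and 0.344 to 0.914 CPM in PRL_Sh. Wdfy1, an adaptor of innate receptors named after its values were seen, was at 26.7 to 29.2 CPM in Veh, 52.7 to 57.6 CPM in PRL and 22.1 to 26.6 CPM in PRL_Sh. PRL_Sh and Veh differ in kit too, and no test was made between them here.

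Mast cell and lymphocyte genes were lower as well. Of 11 tested mast cell genes 10 were lower (median -2.62), and with the muscle covariate 6 were lower and 1 higher. Cma1, the mast cell chymase, was at 39.8, 27.4 and 24.4 CPM in PRL and at 2.14, 1.43 and 5.23 CPM in PRL_Sh (log2 change -3.38 ± 0.46 SE, adjusted p = 0.000855). Tpsb2, a tryptase, was at 29.2, 16.8 and 20.7 CPM in PRL and at 2.36, 2.28 and 3.49 CPM in PRL_Sh (log2 change -3.04 ± 0.28 SE, adjusted p = 0.000186), and Mcpt4, another chymase, changed by -2.65. Kit, the mast cell growth factor receptor that melanocytes also carry, overlapped between the groups at 46.8, 41.02 and 64.7 CPM in PRL and at 47.2, 63.7 and 50.3 CPM in PRL_Sh (adjusted p = 0.744). Of 13 tested T and B cell genes, 8 were lower and none higher (median -1.75). PRL_Sh lay below all 12 rRNA-depleted paw libraries for 1 of 14 lymphocyte and 6 of 11 mast cell genes (all genes, 22.9%). It lay above them for none of either list. Cd3e, of the T cell receptor complex, was at 3.77, 1.75 and 2.25 CPM in PRL and at 0.386, 0.269 and 0.413 CPM in PRL_Sh (log2 change -2.85 ± 0.402 SE, adjusted p = 0.000972), Cd4 changed by -3.78, and Foxp3, of regulatory T cells, by -4.76. Neutrophil genes were mixed, with 6 of 13 lower and 3 higher (median -0.88), and 9 lower and 2 higher with the length offset (median -1.25). S100a9, a calprotectin subunit, was at 30.6, 14.7 and 19.4 CPM in PRL and at 2.36, 3.49 and 3.902 CPM in PRL_Sh (log2 change -2.73 ± 0.32 SE, adjusted p = 0.000476), whereas its partner S100a8 was at 41.8, 16.4 and 16.99 CPM in PRL and at 11.2, 10.6 and 19.2 CPM in PRL_Sh (adjusted p = 0.102). Retnlg, a neutrophil resistin-like protein, changed by -4.595, and Il1r2, a decoy receptor for interleukin 1, was higher at 21.2, 20.6 and 27.6 CPM in PRL and at 44.7, 54.7 and 44.5 CPM in PRL_Sh (log2 change 1.05 ± 0.16 SE, adjusted p = 0.00115). The Il1r2 change was 0.37 (adjusted p = 0.0774) with the length offset.

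Antigen presentation, complement and chemokine genes were lower as well. Of 19 tested genes of antigen presentation, 12 were lower and none higher (median -1.04). Of these 19, PRL_Sh lay below all 12 rRNA-depleted paw libraries for 1 and above them for 1 (all genes, 22.9% and 23.3%). By that count 9 of 21 complement and 11 of 35 cytokine and chemokine genes lay below, and 0 and 2 above. Cd74, the invariant chain of class II, was at 882, 622 and 876 CPM in PRL and at 152, 211 and 199 CPM in PRL_Sh (log2 change -2.08 ± 0.21 SE, adjusted p = 0.000258). Ciita, the class II transactivator, and Itgax, a dendritic cell integrin, changed by -2.88 and -2.57. Among class I genes, B2m, the class I light chain, was at 358, 239 and 218 CPM in PRL and at 203, 212 and 233 CPM in PRL_Sh and did not pass (adjusted p = 0.192), and H2-D1 changed by -0.46 (adjusted p = 0.0219) and did not pass in 6 of 18 alternatives. Of 21 complement genes, 18 were lower and 1 higher (median -1.26). C3, the central component, was at 1708, 978 and 1340.3 CPM in PRL and at 98.6, 97.9 and 104 CPM in PRL_Sh (log2 change -3.74 ± 0.24 SE, adjusted p = 7.3e-05), and PRL_Sh lay below the Veh range of 226 to 423 CPM. C1qa, of the first component, was at 124, 99.2 and 77.1 CPM in PRL and at 33.1, 23.7 and 21.5 CPM in PRL_Sh (log2 change -1.94 ± 0.23 SE, adjusted p = 0.000465), while C3ar1, an anaphylatoxin receptor, and Itgb2, the chain of complement receptors, changed by -2.61 and -3.09. Of 34 tested cytokine, chemokine and receptor genes, 25 were lower and 2 higher (median -1.70), and with the muscle covariate 16 were lower and 3 higher (median -1.41). Ccl9, a myeloid chemokine, was at 125, 114 and 99.1 CPM in PRL and at 14.4, 18.5 and 16.7 CPM in PRL_Sh (log2 change -2.77 ± 0.14 SE, adjusted p = 5.36e-05). Ccl6, another, changed by -2.33. Cxcl12, made by stromal cells, fell by less (log2 change -0.68, adjusted p = 0.0125), and not past the test with the length offset (-0.23, adjusted p = 0.307).

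Of 22 tested interferon-induced genes, 8 were higher and 1 lower (median 0.41), where 29.4% of all genes were higher. Isg15, a ubiquitin-like protein, was at 5.27, 2.88 and 2.15 CPM in PRL and at 15.996, 23.02 and 17.9 CPM in PRL_Sh (log2 change 2.45 ± 0.33 SE, adjusted p = 0.000754). Bst2, which tethers budding viruses, was at 11.1, 11.1 and 7.42 CPM in PRL and at 44.9, 41.6 and 47.7 CPM in PRL_Sh (log2 change 2.18 ± 0.17 SE, adjusted p = 0.000127). Ifit3 was at 14.6, 11.7 and 6.35 CPM in PRL and at 26.5, 45.4 and 41.8 CPM in PRL_Sh (log2 change 1.796 ± 0.32 SE, adjusted p = 0.00279), and Irf7, the regulator of the class, changed by 1.12. PRL_Sh exceeded all 12 rRNA-depleted paw libraries for 6 of the 22 genes (27.3%; all genes, 23.3%). With the muscle covariate 2 were higher and 3 lower (median -0.13), and without PRL replicate 3, 7 were higher and 3 lower (median 0.11). Ifitm3 changed by 0.75 and had a value of -0.24 (adjusted p = 0.3) with the length offset.

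Saa1, an acute-phase gene, had the largest fitted rise among genes above a mean log2 CPM of 3. Serum amyloid A proteins and lipocalin 2 are made in liver and in inflamed skin, and transcription factors of the C/EBP and NF-κB families drive them. The windows from 250 bases before to 50 after the start site are shown for 3 of the 4 that rose most, as given by RefSeq for GRCm38.p6, with matches to TTGCNNAA, a core form of the C/EBP site, in capitals.
Saa1, chr7:46742931-46743230 (- strand): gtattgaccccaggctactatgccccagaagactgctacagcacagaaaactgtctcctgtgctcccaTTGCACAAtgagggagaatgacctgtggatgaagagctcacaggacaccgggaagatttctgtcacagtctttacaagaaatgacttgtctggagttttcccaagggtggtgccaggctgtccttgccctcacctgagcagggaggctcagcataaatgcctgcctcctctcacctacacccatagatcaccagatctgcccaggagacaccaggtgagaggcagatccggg
Saa3, chr7:46715627-46715926 (- strand): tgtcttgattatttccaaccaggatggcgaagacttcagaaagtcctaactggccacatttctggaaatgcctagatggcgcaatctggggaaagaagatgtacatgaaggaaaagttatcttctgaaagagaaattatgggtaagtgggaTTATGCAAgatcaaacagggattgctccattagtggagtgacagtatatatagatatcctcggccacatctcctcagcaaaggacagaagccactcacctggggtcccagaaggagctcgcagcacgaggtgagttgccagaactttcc
Lcn2, chr2:32387690-32387989 (- strand): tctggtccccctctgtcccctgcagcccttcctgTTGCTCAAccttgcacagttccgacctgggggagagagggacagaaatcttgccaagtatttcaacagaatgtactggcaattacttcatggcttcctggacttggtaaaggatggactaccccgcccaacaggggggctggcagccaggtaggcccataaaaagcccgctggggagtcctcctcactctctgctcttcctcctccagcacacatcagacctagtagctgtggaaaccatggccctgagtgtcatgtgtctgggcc

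Searched on both strands, each window held 1 match to TTGCNNAA, which 10.8% of 32544 windows of this length hold. Saa1 was at 0.263, 0.308 and 0.293 CPM in PRL and at 21.1, 39.3 and 39.3 CPM in PRL_Sh (log2 change 6.82 ± 0.39 SE, adjusted p = 5.99e-05), a 115-fold difference of the means. Its reads numbered 9 over the 3 PRL libraries and 2226 over the 3 PRL_Sh libraries. Saa2 had 0, 1 and 0 reads in PRL and 104, 212 and 242 reads in PRL_Sh, a ratio of read shares of 262 (95% exact interval 46.8 to 10363, counting error only). Saa1 and Saa2 are near-identical copies, so how their reads were divided is uncertain. Saa3 was at 12.3, 2.36 and 4.002 CPM in PRL and at 78.8, 85.2 and 96.7 CPM in PRL_Sh (log2 change 3.78 ± 0.52 SE, adjusted p = 0.000862), and is named after its values were seen. Lcn2, which binds bacterial iron carriers, was at 4.21, 5.04 and 3.905 CPM in PRL and at 37.5, 63.7 and 30.8 CPM in PRL_Sh (log2 change 3.33 ± 0.31 SE, adjusted p = 0.000196). PRL_Sh exceeded the Veh range for all 4 genes, which was 0.1695 to 2.06 CPM for Saa1 and 4.92 to 7.41 CPM for Lcn2. Over the list, 9 of 23 tested genes were higher and 6 lower (median 0.23), 7 and 7 with the length offset (median 0.06) and 8 and 3 with the muscle covariate (median 0.43). The metal-binding Mt1 was at 92.9, 59.7 and 87.8 CPM in PRL and at 231, 283 and 198 CPM in PRL_Sh (log2 change 1.57 ± 0.21 SE, adjusted p = 0.00077), and Mt2 changed by 1.23 (0.15, adjusted p = 0.602, with the length offset). Trf, the iron carrier transferrin, was lower at 57.7, 55.00 and 73.4 CPM in PRL and at 24.7, 23.7 and 25.8 CPM in PRL_Sh (log2 change -1.32 ± 0.13 SE, adjusted p = 0.000268).

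**Figure D4:**
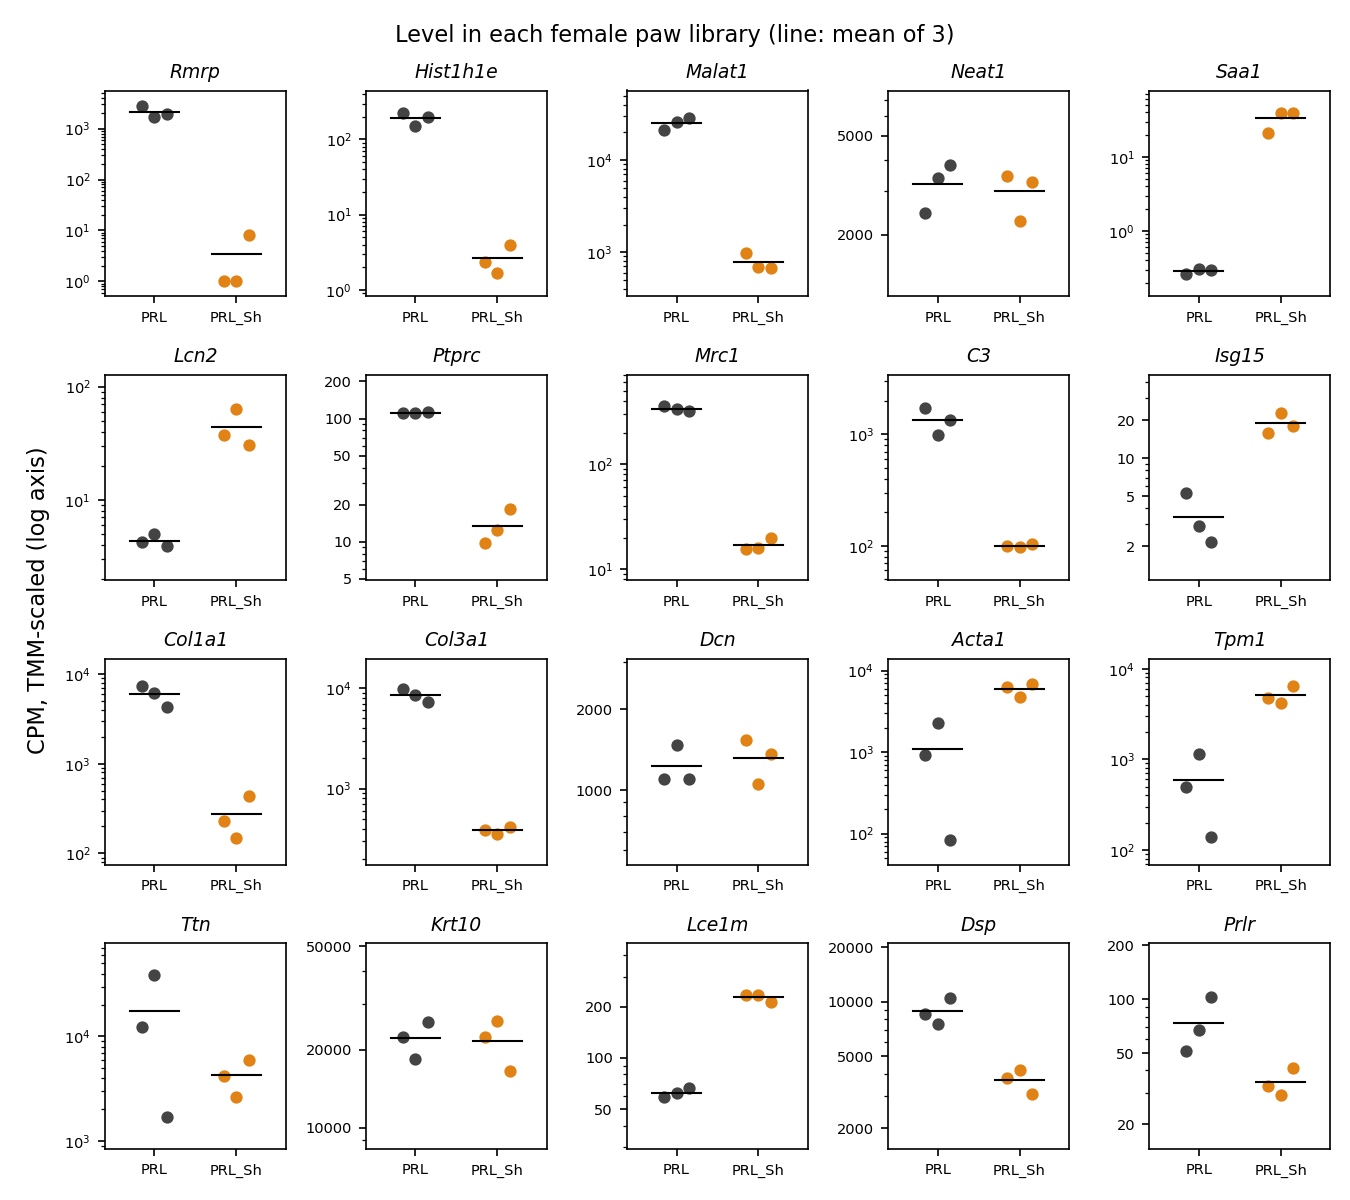
Level of 20 genes in each female paw library, as TMM-scaled CPM on log axes that differ between panels, with PRL in grey, PRL_Sh in orange and a line at each mean of 3. Saa1 and Lcn2 are higher in every PRL_Sh library, Mrc1, C3, Col1a1 and Col3a1 are lower in every one, Krt10, Dcn and Neat1 overlap, and the muscle genes Acta1, Tpm1 and Ttn spread widely among the PRL libraries.

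Most extracellular matrix genes were lower. Of 20 tested collagen genes, 19 were lower and none higher (median -2.72). For 19 of the 20, PRL_Sh lay below all 12 rRNA-depleted paw libraries (all genes, 22.9%). The summed share of the 20 was 3.21%, 2.75% and 2.24% of gene reads in PRL and 0.298%, 0.2705% and 0.358% in PRL_Sh. Col1a1, the main chain of type I collagen, was at 7387, 6210.5 and 4345 CPM in PRL and at 228, 150.3 and 441 CPM in PRL_Sh (log2 change -4.45 ± 0.49 SE, adjusted p = 0.000359). Col3a1, of type III, was at 9712, 8582 and 7199 CPM in PRL and at 385, 352 and 416 CPM in PRL_Sh (log2 change -4.47 ± 0.28 SE, adjusted p = 6.54e-05). Col14a1, which sits on fibrils, was at 233, 193 and 176 CPM in PRL and at 6.78, 6.05 and 6.98 CPM in PRL_Sh (log2 change -4.92 ± 0.16 SE, adjusted p = 1.85e-05). PRL_Sh replicate 3 was the highest of its group for Col1a1, and still far below the lowest PRL library. Col1a2, Col6a1 and Col6a2 changed by -3.39, -3.35 and -4.16. The Veh libraries held 2157 to 2669 CPM of Col3a1 and 1263 to 1793 CPM of Col1a1, between the 2 prolactin groups. Collagen transcripts are long, and with the length offset 16 of 20 were lower (median -2.16). Col6a5, another type VI chain, was at 107, 106 and 321 CPM in PRL and at 0, 0.0448 and 0.413 CPM in PRL_Sh (log2 change -10.15 ± 0.89 SE, adjusted p = 0.000164), and Col6a6, its neighbour in the family, changed by -9.25. For Col6a5 the Veh range was 1.102 to 1.43 CPM, and PRL replicate 3 was the highest library.

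Of 31 matrix glycoproteins and crosslinking enzymes, 25 were lower and none higher (median -1.62). Postn, a matricellular protein of healing skin, was at 1372, 1119 and 1903 CPM in PRL and at 52.8, 53.4 and 78.4 CPM in PRL_Sh (log2 change -4.57 ± 0.298 SE, adjusted p = 7.3e-05). Fbn1, the microfibril protein, was at 1953, 1985 and 1581 CPM in PRL and at 84.4, 61.7 and 94.1 CPM in PRL_Sh (log2 change -4.52 ± 0.24 SE, adjusted p = 5.72e-05). Fn1, fibronectin, was at 4535, 4391 and 2385 CPM in PRL and at 486, 285 and 334 CPM in PRL_Sh (log2 change -3.36 ± 0.36 SE, adjusted p = 0.000323). Eln, elastin, and Loxl2, a crosslinking enzyme, changed by -2.36 and -3.28, and Sparc, a collagen-binding protein, by -1.61. Dcn, the most abundant small proteoglycan of dermis, overlapped at 1103, 1474 and 1104 CPM in PRL and at 1541, 1056 and 1359 CPM in PRL_Sh (log2 change 0.104 ± 0.22 SE, adjusted p = 0.705). Of 22 proteases and inhibitors of the matrix, 17 were lower and none higher. Adam12, a membrane protease, was at 42.4, 22.7 and 29.1 CPM in PRL and at 0.772, 0.627 and 1.84 CPM in PRL_Sh (log2 change -4.86 ± 0.43 SE, adjusted p = 0.000166), Mmp2, a gelatinase, changed by -1.84, and the inhibitor Timp2 by -1.09. Of 17 tested markers of the fibroblasts themselves, 12 were lower and 1 higher (median -1.18). Pdgfra, the growth factor receptor of fibroblasts, was at 227, 239.8 and 225 CPM in PRL and at 55.6, 43.4 and 57.98 CPM in PRL_Sh (log2 change -2.14 ± 0.14 SE, adjusted p = 7.3e-05). Thy1 and Pi16, surface markers, changed by -1.55 and -1.76.

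Muscle genes were higher in PRL_Sh against a PRL group that was itself spread widely. Of 29 contractile genes, 16 were higher and none lower (median 2.90). Their summed share overlapped, at 2.05%, 5.88% and 0.277% of gene reads in PRL and 5.12%, 3.73% and 6.92% in PRL_Sh. In each PRL library most of that sum came from Ttn (below), and in each PRL_Sh library a small part of it. The mean log2 level of the contractile genes, given above, did not overlap. Tnni2, the fast troponin I, was at 109.6, 308 and 16.6 CPM in PRL and at 2023, 1476 and 2657 CPM in PRL_Sh (log2 change 3.83 ± 0.93 SE, adjusted p = 0.0101). Tpm1, tropomyosin, was at 495, 1159 and 138 CPM in PRL and at 4727, 4137 and 6398 CPM in PRL_Sh (log2 change 3.09 ± 0.71 SE, adjusted p = 0.00806). Acta1, skeletal actin, was at 931, 2300.4 and 83.5 CPM in PRL and at 6211, 4788 and 6926 CPM in PRL_Sh (log2 change 2.44 ± 0.96 SE, adjusted p = 0.0609). Ttn, the giant sarcomere protein with a longest model of 106824 nt, was at 12364, 38965 and 1679 CPM in PRL and at 4212, 2630.2 and 5921 CPM in PRL_Sh (log2 change -2.05 ± 0.97 SE, adjusted p = 0.105), a direction opposite to that of Tpm1, and at 0.94 with the length offset. For all 4 genes PRL replicate 3 was the lowest of the 6 libraries and PRL replicate 2 the highest of its group. The count of contractile genes was 4 without PRL replicate 1, 22 without PRL replicate 2, 20 (with 1 lower) without PRL replicate 3, 9 without PRL_Sh replicate 1, 7 without PRL_Sh replicate 3 and 6 with the length offset. Of 28 muscle genes of metabolism and excitation, 16 were higher and 1 lower (median 2.47). Their count was 4 without PRL replicate 1, 24 without PRL replicate 2, 10 and 11 without PRL_Sh replicates 1 and 3, and 9 with the length offset. Ckm, the muscle creatine kinase, was at 253, 627 and 34.4 CPM in PRL and at 3614, 2302 and 4066 CPM in PRL_Sh (log2 change 3.45 ± 0.91 SE, adjusted p = 0.0143). Mb, myoglobin, and Cox6a2, a muscle subunit of cytochrome oxidase, changed by 3.35 and 3.69. Atp2a1, the calcium pump, was at 1074, 3211 and 208 CPM in PRL and at 6816, 3699 and 10016 CPM in PRL_Sh (adjusted p = 0.0674). Fbp2, of gluconeogenesis in muscle, was at 1.93, 1.64 and 1.37 CPM in PRL and at 10.7, 9.54 and 8.54 CPM in PRL_Sh (log2 change 2.53 ± 0.22 SE, adjusted p = 0.000153).

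The 10 largest rises above a mean log2 CPM of 3, outside the RNA classes, were led by Saa1, and the other 9 were Pdk4, Zmynd17, Csrp3, Asb5, Ctxn3, Abra, Ankrd2, Lmcd1 and Asb11, with log2 changes of 4.101 to 4.92. Pdk4, which blocks pyruvate oxidation in fasting muscle, was at 6.49, 20.3 and 3.42 CPM in PRL and at 373, 175 and 364 CPM in PRL_Sh (log2 change 4.92 ± 0.68 SE, adjusted p = 0.000894). Its highest rRNA-depleted paw library was at 117 CPM and its lowest PRL_Sh library at 168 CPM on the common scale. Csrp3 and Ankrd2, stretch-sensing proteins of the sarcomere, changed by 4.45 and 4.26, and Abra, an activator of actin-dependent transcription in muscle, by 4.26. Without PRL replicate 1, Csrp3 (adjusted p = 0.0501), Ckm (0.0613), Mb (0.0668) and Zmynd17 (0.0706) no longer passed the test. Car3, a carbonic anhydrase of muscle and fat in the adipocyte list, was at 312, 917 and 133 CPM in PRL and at 3029.6, 1826 and 5507 CPM in PRL_Sh (log2 change 2.93 ± 0.75 SE, adjusted p = 0.0126) and was not called without PRL replicate 1 either (adjusted p = 0.0559). In that list 3 of 16 genes were higher and 5 lower, among them Fasn, the fatty acid synthase, at 608, 495 and 530.0 CPM in PRL and at 238, 263 and 223 CPM in PRL_Sh (log2 change -1.17 ± 0.14 SE, adjusted p = 0.000542).

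Most keratins of the living epidermis did not pass the test. Of 15 suprabasal and stress keratin genes, 3 were higher and none lower (median 0.22). Krt10 (log2 change -0.04 ± 0.37 SE, adjusted p = 0.939) overlapped between the groups, as did Krt2, at 16031, 18422 and 27719 CPM in PRL and at 26587, 32589 and 20831 CPM in PRL_Sh, and Krt1, at 10086, 6339 and 7201 CPM in PRL and at 14112, 13107 and 7681 CPM in PRL_Sh. Krt9, the keratin of footpad skin, was at 2281, 2243 and 2579 CPM in PRL and at 5112, 5119 and 2840.3 CPM in PRL_Sh (log2 change 0.88 ± 0.29 SE, adjusted p = 0.0332). That difference did not pass in 8 of 18 alternatives. Krt79, of hair canal cells, was at 206, 165 and 152 CPM in PRL and at 418, 452 and 428 CPM in PRL_Sh (log2 change 1.31 ± 0.15 SE, adjusted p = 0.000434). Of 25 basal and adhesion genes, 5 were higher and 7 lower. Krt5, the basal keratin, was at 1692, 1384 and 1743 CPM in PRL and at 2903, 3759.9 and 2807 CPM in PRL_Sh (log2 change 0.97 ± 0.22 SE, adjusted p = 0.00782). Dsp, the long desmosomal linker, was at 8612, 7564 and 10553 CPM in PRL and at 3783, 4173 and 3069.7 CPM in PRL_Sh (log2 change -1.28 ± 0.28 SE, adjusted p = 0.00631). Lama3, of the basement membrane, Itga6, its integrin, and Dsg3, a desmosomal cadherin, changed by -1.196, -0.79 and -0.75. With the length offset, Krt5 (0.59, adjusted p = 0.0551), Dsp (-0.23, 0.524), Lama3 (-0.06, 0.797) and Dsg3 (-0.17, 0.202) did not pass, and 2 genes were higher and 2 lower.

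Cornified envelope genes, which are short and clustered, were more often higher. Of 40 tested, 19 were higher and 8 lower (median 0.43), and 18 of 41 exceeded all 12 rRNA-depleted libraries (all genes, 23.3%). With the length offset the count was 5 higher and 8 lower (median 0.13). Lce1m, a late envelope protein, was at 58.6, 62.3 and 66.3 CPM in PRL and at 235, 235 and 214 CPM in PRL_Sh (log2 change 1.87 ± 0.11 SE, adjusted p = 6.26e-05), and Lce1e changed by 1.56. Late envelope genes are close copies of one another, so reads may be lost or placed in a wrong copy. Lor, loricrin, was at 1665, 1200.3 and 1928 CPM in PRL and at 4339, 3075 and 2499 CPM in PRL_Sh (log2 change 1.05 ± 0.295 SE, adjusted p = 0.0185), and Asprv1, a filaggrin-processing protease, changed by 0.94, calls lost in 7 of 18 alternatives each. Flg2, filaggrin 2, was lower at 322, 479 and 401 CPM in PRL and at 84.3, 94.8 and 133 CPM in PRL_Sh (log2 change -1.95 ± 0.23 SE, adjusted p = 0.000448; -0.21, adjusted p = 0.366, with the length offset). Sprr2h, a small proline-rich protein, was at 42.2, 35.2 and 43.8 CPM in PRL and at 16.5, 12.6 and 10.4 CPM in PRL_Sh (log2 change -1.61 ± 0.19 SE, adjusted p = 0.000456). Of 21 genes of the lipid barrier, 3 were higher and 2 lower, with Abca12, the lipid pump of lamellar granules, at 513, 486 and 656 CPM in PRL and at 212, 183 and 169 CPM in PRL_Sh (log2 change -1.55 ± 0.17 SE, adjusted p = 0.000364) and Elovl3, a fatty acid elongase, at 23.1, 22.6 and 25.6 CPM in PRL and at 63.8, 65.2 and 57.9 CPM in PRL_Sh (log2 change 1.39 ± 0.11 SE, adjusted p = 0.00011). Of 21 hair keratin and follicle genes 4 were higher and 1 lower, with Krt35 at 3.77, 3.495 and 0.976 CPM in PRL and at 17.2, 17.2 and 11.2 CPM in PRL_Sh (log2 change 2.46 ± 0.43 SE, adjusted p = 0.00238). With the muscle covariate 1 of them was higher and 7 lower (median -1.26), and without PRL replicate 3, 3 of 22 were higher and 9 lower. PRL replicate 3 was lowest of all for Krt35. Of 16 tested keratin-associated protein genes, 1 was higher and none lower (median -0.49), with 4 lower under the length offset (median -1.29), 3 lower with the muscle covariate (median -1.57) and none higher in either. Without PRL replicate 3, 13 of 31 tested were lower and 2 higher, where 4144 and 3912 of all 15340 tested genes were.

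Nerve, gland and vessel markers differed in direction. Of 13 tested Schwann cell and nerve genes, 9 were higher and 2 lower, and with the length offset 6 were higher and 1 lower (median 0.61). Pmp22, a myelin protein of nerve, was at 152, 188 and 152 CPM in PRL and at 295, 285 and 311 CPM in PRL_Sh (log2 change 0.86 ± 0.13 SE, adjusted p = 0.00134), with a value of 0.34 (adjusted p = 0.0759) under that offset, and S100b changed by 1.47. Of 11 sweat gland genes 7 were higher and none lower, with the glandular keratins Krt8 and Krt7 at changes of 1.93 and 1.71. Of 20 endothelial and mural genes, 10 were lower and none higher (median -0.69), or 6 lower with the length offset (median -0.43), with Vwf, von Willebrand factor, at 118, 113 and 115 CPM in PRL and at 25.1, 19.1 and 32.4 CPM in PRL_Sh (log2 change -2.17 ± 0.19 SE, adjusted p = 0.000162). Sensory neuron genes had 6 tested members, 1 of them higher. Of 12 tested bone and cartilage genes 2 were higher and 4 lower, and of 11 tendon and joint genes 1 was higher and none lower. With the muscle covariate 1 bone gene was higher and 6 were lower, and 5 tendon genes were lower and none higher (median -1.33). The erythrocyte list had 1 tested gene, which did not pass.

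In the prolactin pathway, Prlr was at 51.4, 67.4 and 103 CPM in PRL and at 32.6, 29.2 and 41.3 CPM in PRL_Sh (log2 change -1.104 ± 0.26 SE, adjusted p = 0.00895), with every PRL_Sh library below every PRL library. The Prlr value was -0.04 (adjusted p = 0.906) with the length offset, its longest model being 9900 nt, and -0.63 (adjusted p = 0.151) with the muscle covariate. The Veh range for Prlr was 91.9 to 101 CPM. Of 18 tested genes of the pathway, 5 were lower and 1 higher (median -0.43), and 2 lower and none higher with the muscle covariate (median -0.18). Igf1, a growth factor made by fibroblasts and macrophages, was at 247, 275 and 238 CPM in PRL and at 16.8, 12.8 and 21.99 CPM in PRL_Sh (log2 change -3.88 ± 0.22 SE, adjusted p = 5.84e-05). Esr1, the estrogen receptor, was at 17.2, 21.6 and 12.5 CPM in PRL and at 4.803, 2.78 and 4.54 CPM in PRL_Sh (log2 change -2.08 ± 0.28 SE, adjusted p = 0.000862), and Jak2, the receptor's kinase, changed by -0.67 (-0.35, adjusted p = 0.0639, with the length offset).

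Of 17 tested immediate early genes, 9 were lower in PRL_Sh and none higher (median -1.18). Fosb, of the AP-1 factor, was at 38.7, 84.3 and 488 CPM in PRL and at 2.92, 3.404 and 4.41 CPM in PRL_Sh (log2 change -5.83 ± 1.02 SE, adjusted p = 0.0024). Egr1, a zinc finger factor, was at 122, 227 and 707 CPM in PRL and at 57.9, 61.9 and 61.5 CPM in PRL_Sh (log2 change -2.54 ± 0.59 SE, adjusted p = 0.00858). PRL replicate 3, the library with the least muscle RNA, was the highest for both. The list count was 4 higher and 1 lower with the muscle covariate (median -0.09), under which Egr1 did not pass (-0.98, adjusted p = 0.133). Without PRL replicate 3, 7 genes were lower and 1 higher. Of 14 glucocorticoid-responsive genes, 6 were higher and 4 lower. Tsc22d3, an anti-inflammatory target, was at 64.9, 107 and 96.2 CPM in PRL and at 235, 218 and 306 CPM in PRL_Sh (log2 change 1.503 ± 0.22 SE, adjusted p = 0.00114). Of 20 cell cycle genes, 3 were higher and 4 lower, and the counts were 1 and 5 with the length offset, 6 and 1 with the muscle covariate, 1 and 7 without PRL_Sh replicate 2 and 6 and 1 without PRL_Sh replicate 3. Mki67, the proliferation marker, was at 401, 351 and 451 CPM in PRL and at 139.9, 184 and 179 CPM in PRL_Sh (log2 change -1.26 ± 0.16 SE, adjusted p = 0.000668), and Pcna, the replication clamp, at 23.3, 20.8 and 22.9 CPM in PRL and at 34.9, 40.3 and 35.5 CPM in PRL_Sh (log2 change 0.72 ± 0.11 SE, adjusted p = 0.00139). The 2 markers went in opposite directions, and with the length offset neither passed (-0.18, adjusted p = 0.432, and 0.09, adjusted p = 0.529).

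The same pair of groups exists in female DRG, with the same difference of kit, and 12 libraries fitted together tested whether the change differed between the tissues. Of 16110 genes, the change was higher in paw for 4173 (25.9%) and lower in paw for 2050 (12.7%), 6223 in all (38.6%). In DRG itself 7946 genes (49.3%) passed. The split depended on scaling. With RLE scaling it was 2708 and 3031, with DESeq2 2976 and 3313, with the length offset 2649 and 2694, without a filter 2006 and 3638, and without Female DRG PRL replicate 3 it was 2016 and 3192. RLE moved the median difference of all genes from 0.19 to -0.02 on the log2 scale, so values are read against a median of 0.19. The RNA classes were low in PRL_Sh of both tissues. Replication-dependent histones had medians of -7.30 in paw and -6.67 in DRG, and 6 of 56 had a higher and 5 a lower change in paw. Small nuclear RNAs had medians of -5.62 and -7.26, and none of 6 passed the test of the difference. Of 23 macrophage identity genes, 19 had a lower change in paw and none a higher one, with medians of -1.83 in paw and -0.05 in DRG. Of 20 collagen genes, 15 had a lower change in paw and 1 a higher one (medians -2.65 and -1.03). Of 21 complement genes, 13 were lower and 1 higher by that test (medians -1.19 and -0.06). OXPHOS genes had a higher change in paw for 70 of 75 (medians 1.69 and 0.43), and contractile muscle genes for 23 of 29 (medians 2.99 and -2.30). The DRG libraries differ in muscle RNA as well, with a mean log2 level of 7.55 in PRL replicate 1 and 2.34 to 5.10 in the other 5.

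**Figure D5:**
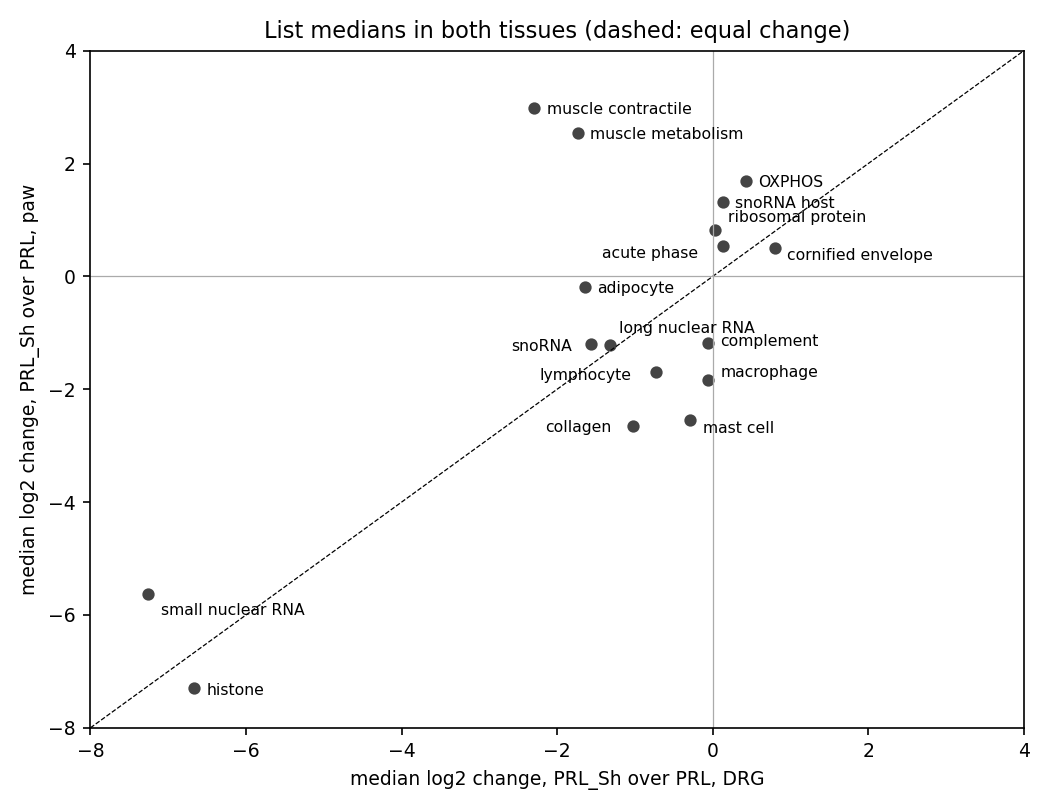
Median log2 change of PRL_Sh over PRL of 17 gene lists in female paw (vertical axis) against female DRG (horizontal axis), from 1 fit of 12 libraries, with a dashed line at equal change. Histone and small nuclear RNA lists lie far down near the line, macrophage (-0.05 in DRG, -1.83 in paw), complement and mast cell lists lie below it, and both muscle lists lie far above it.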

How the data were processed

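RNA-seq counts per gene were deposited for each library. Per the submitters' processing notes the authors used bcl2fastq, TopHat2 and HTSeq with mm9, with versions, strand setting and annotation not given in the sources used here. In both groups, reads mapped more than once were counted apart from genes, 41.5% to 44.8% of counted reads in PRL and 46.3% to 48.3% in PRL_Sh. Ambiguous reads had a line of their own too. Whether the settings behind these lines were alike for both kits is not stated. The 5 summary lines of each file stayed out of library sizes and tests, which left 22.3% to 24.5% of counted reads in PRL and 42.2% to 43.0% in PRL_Sh. Genes passing filterByExpr were tested with edgeR 4.0.16 (quasi-likelihood, TMM scaling, Benjamini-Hochberg adjusted p of 0.05) in R 4.3.3. One fit held the 6 paw libraries, a second held these and 6 DRG libraries and tested the difference of the changes. Log2 changes of genes at 0 reads in a group depend on the prior count.

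The members and the 43 gene lists were chosen with earlier results of these data known. Lists can share genes, such as C1qa (macrophage and complement), Igf1 (fibroblast and prolactin pathway) and Lcn2 (neutrophil and acute phase). Counts of such lists are therefore not separate results. Per list, the 4 genes of lowest p and the 3 of highest level could be named, besides the 10 largest changes in each direction above a mean log2 CPM of 3 and the 8 largest tissue differences in each direction. Ptprc, Saa3, Wdfy1 and S100a8 were added after their values were seen. Some genes that the rule names are not reported here. Alternatives were RLE scaling, TMM without RNA class genes, DESeq2 1.42.0, filters, thinning, a replicate block, leaving out each library, a muscle covariate, edgeR's test against a 2-fold change, one fit of all female paw groups and, added after seeing the data, length and GC offsets and the muscle covariate in the 12-library fit. On counts simulated from the means of the paw libraries, with 14666 genes and 2-fold changes, 63 of 195 changed genes (32.3%) were recovered with 6 false calls (8.70% of calls). In the data 58.5% of genes passed, a far larger share than was changed there, so these rates do not carry over to the calls above. Intervals cover counting error only. Replicates of a group differed by more than sampling noise, with a chi-square of at least 38.2 per degree of freedom. An exact permutation test of 3 against 3 cannot go below p = 0.1 and was not used.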

Additional observations from a re-analysis of the deposited data

Results flagged for a closer look

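For 15 genes named for the size of the difference or for their list, the change between PRL_Sh and PRL differed between female paw and female DRG in the fit of 12 libraries (edgeR quasi-likelihood test of the difference, Benjamini-Hochberg over 16110 genes, 3 libraries per group). Each difference is the log2 change in paw minus that in DRG, and the median over all genes was 0.19. The DRG groups also differ in kit, so kit and group cannot be told apart in either tissue.

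Among immune genes, Mrc1 stood at 339 CPM in PRL and 18.1 CPM in PRL_Sh paw, and 66.04 and 16.5 CPM in DRG (difference -2.23 ± 0.15 SE, adjusted p = 4.17e-06). Cd74 stood at 802 CPM in PRL and 199 CPM in PRL_Sh paw, and 122 and 146 CPM in DRG (difference -2.27 ± 0.24 SE, adjusted p = 8.03e-05). For C3 the means were 1358 CPM in PRL and 106 CPM in PRL_Sh paw, and 70.3 and 68.1 CPM in DRG (difference -3.63 ± 0.37 SE, adjusted p = 5.51e-05). For Retnla they were 103 CPM in PRL and 1.85 CPM in PRL_Sh paw, and 5.16 and 3.47 CPM in DRG (difference -5.202 ± 0.64 SE, adjusted p = 0.000171). In each of these 4 the change was the lower one in paw, and in DRG Cd74 had the higher mean in PRL_Sh.

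Among matrix and fibroblast genes, Col14a1 stood at 202 CPM in PRL and 7.005 CPM in PRL_Sh paw, and 182 and 75.4 CPM in DRG (difference -3.58 ± 0.199 SE, adjusted p = 1.75e-06). Postn, at 1481 CPM in PRL and 65.1 CPM in PRL_Sh paw, and 62.2 and 28.1 CPM in DRG, had a difference of -3.36 ± 0.31 SE, adjusted p = 3.17e-05. Thy1, which sensory neurons also make, was at 116 CPM in PRL and 41.8 CPM in PRL_Sh paw, and 419 and 606 CPM in DRG (difference -2.01 ± 0.18 SE, adjusted p = 2.27e-05).

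Car4 was at 23.2 CPM in PRL and 0.765 CPM in PRL_Sh paw, and 3.704 and 5.43 CPM in DRG (difference -5.46 ± 0.51 SE, adjusted p = 3.43e-05). Fosb was at 207 CPM in PRL and 3.79 CPM in PRL_Sh paw, and 1.65 and 1.36 CPM in DRG (difference -5.52 ± 1.33 SE, adjusted p = 0.0074) and did not pass in 1 of 21 alternatives, the muscle covariate (-2.60, adjusted p = 0.173).

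In the other direction, Saa1 was at 0.2901 CPM in PRL and 35.3 CPM in PRL_Sh paw, and 0.104 and 0.206 CPM in DRG (difference 5.93 ± 1.51 SE, adjusted p = 0.00993) and did not pass in 1 of 21 alternatives, the one without Female DRG PRL replicate 1 (4.99, adjusted p = 0.136). Lcn2 was at 4.41 CPM in PRL and 47.1 CPM in PRL_Sh paw, and 22.9 and 15.9 CPM in DRG (difference 3.94 ± 0.62 SE, adjusted p = 0.000718). The muscle genes Abra, at 5.22 CPM in PRL and 105 CPM in PRL_Sh paw, and 4.85 and 0.321 CPM in DRG (difference 8.21 ± 1.35 SE, adjusted p = 0.000901), and Pdk4, at 9.98 CPM in PRL and 321 CPM in PRL_Sh paw, and 65.3 and 18.2 CPM in DRG (difference 6.85 ± 0.98 SE, adjusted p = 0.000415), also had the higher change in paw. Muscle RNA differed between libraries of both tissues, and its part in these differences was not tested beyond the covariate.

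Malat1 was at 25428 CPM in PRL and 833 CPM in PRL_Sh paw, and 35907 and 237 CPM in DRG (difference 2.31 ± 0.28 SE, adjusted p = 0.000164), and Kcnq1ot1 at 321 CPM in PRL and 10.6 CPM in PRL_Sh paw, and 518 and 4.34 CPM in DRG (difference 1.98 ± 0.19 SE, adjusted p = 4.55e-05). Both were lower in PRL_Sh of both tissues, and by more in DRG.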

How the results depend on the processing

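Of 162 paw genes recomputed under up to 18 alternatives, 147 passed the test and 101 of them did so in every alternative. The length offset ended 23 calls, edgeR's test against a 2-fold change 42, the muscle covariate 12, the replicate block 9 and the GC offset 2. Leaving out PRL replicates 1, 2 and 3 ended 11, 4 and 1 calls, and leaving out PRL_Sh replicates 1, 2 and 3 ended 6, 3 and 2. Of 15 genes tested for the tissue difference, 13 kept their call in all 21 alternatives. The cause of a lost call was not tested.

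Among paw counts, the muscle covariate gave 2799 higher genes, the length offset 1068 higher by 2-fold or more, and the test against a 2-fold change 547 higher and 1315 lower. Leaving out 1 library gave 3476 to 4011 higher and 3510 to 4144 lower genes, 1613 to 2005 and 2297 to 2567 by 2-fold or more. With the replicate block, 3311 were higher and 3535 lower, and 3072 and 1594 for the tissue difference. Same-numbered libraries deviated with r of -0.04, -0.43 and -0.31, and differently numbered ones with r of -0.06 to 0.36. The deviations are from means of 3 libraries, so they cannot show whether equal numbers mark a pair.

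For the tissue difference, RLE scaling gave 2708 higher (1300 by 2-fold or more) and DESeq2 3313 lower. Without a filter 2006 were higher and 3638 lower (1038 and 1841 by 2-fold or more). The muscle covariate gave 2329 and 1164 (1301 higher by 2-fold or more), and the length offset 2649 higher (1245 by 2-fold or more). Leaving out 1 library gave 2016 to 4228 higher and 1642 to 3192 lower (1096 to 2185 and 930 to 1681 by 2-fold or more). One library, Female DRG PRL replicate 3, set the extremes 2016, 3192, 1096 and 1681.

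Signs of log2 changes turned for 11 genes, 3 of which had passed the test. Leaving out 1 library gave ranges of -0.27 to 0.044 for Neat1, -0.37 to 0.13 for Arg1, -0.083 to 0.28 for Kit, -0.019 to 0.24 for Dcn and -0.20 to 0.12 for Krt10. The muscle covariate gave Neat1 0.032, Dcn -0.18, Atp2a1 -0.0038 and Krt10 0.36. The length offset gave Hist1h2bc -0.53, Neat1 1.63, which passed the test (adjusted p = 0.00213), Xist 0.30, Lgals3 -0.073, Ifitm3 -0.24 and Ttn 0.94. The lower depth of the PRL libraries limits the lists of low level.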
